A study of Homo sapiens with 16 samples.

Results

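The cytosolic ribosomal protein genes examined here were 81 of the 57736 genes in the deposited table. They were the protein-coding genes whose symbol is RPL or RPS followed by a number and at most one trailing letter (A, X or L), together with RPLP0, RPLP1, RPLP2 and RPSA, leaving out pseudogenes and genes on chromosome Y. The rule uses symbols only and no measured value, but the family was chosen for description with earlier results of these data known. The set held 32 genes of the small (40S) subunit and 49 of the large (60S) subunit, and 79 of the 81 had enough counts to be tested. Ribosomal proteins with other symbols, such as FAU and RACK1, were kept as a separate list.

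The study followed H9, an established human embryonic stem cell line, through cortical differentiation under dual SMAD inhibition, the blocking of BMP and TGF-beta signalling that directs stem cells to a neural fate. Cells grew either with Thiamet-G (TMG, 40 µM), which inhibits the enzyme that removes O-GlcNAc from proteins, or with its solvent DMSO as control. RNA depleted of ribosomal RNA was sequenced at days 0, 12, 30 and 70 (D0, D12, D30 and D70), with 2 libraries for each of the 8 groups. The D0 groups were undifferentiated stem cells with or without TMG, and the D12, D30 and D70 groups were differentiating cultures, with TMG kept in the treated ones throughout. All 16 libraries came from this 1 line, and the 2 libraries of a group are biological replicates of it, so each p-value rests on the spread between such cultures. In the main fit the spread of a gene was estimated over all 8 groups together. A p-value for 1 comparison therefore also draws on the spread within groups outside it. Groups were taken from the sample titles. For 8 of the 16 libraries a separate treatment label goes against the title, since it reads control for every replicate 1 and TMG for every replicate 2, so each TMG comparison below is one between libraries titled TMG and libraries titled control.

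A cytosolic ribosome is built from a fixed set of proteins bound to ribosomal RNA, and cells make these proteins in matched amounts. Their mRNAs are among the most abundant in growing cells. Most of them begin with a C followed by a run of C and T, the 5′ terminal oligopyrimidine (TOP) tract, through which mTOR signalling and the RNA-binding protein LARP1 set how much of the mRNA is translated and kept. Pluripotent stem cells are known for high ribosome production.

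The first transcribed bases of members are shown because the TOP tract is the sequence feature that most of the family shares. RefSeq start sites on GRCh38.p14 were found for 64 of the 81 members. Of these, 46 (71.9%) had at least 1 start with a C at the first transcribed base followed by at least 4 bases that are each C or T, read on the strand of the gene, against 1404 of 27305 genes in the whole table (5.14%). Each line below gives 15 bases before the start and 15 from it, 5′ to 3′, and the capitals mark the run of C and T that begins at the first transcribed base. RPS19, RPS6, RPL24 and RPL35A stand for the long tracts. RPS27 and its paralog RPS27L are set side by side because they are near-copies with different listed starts. RPS4X, RPS26 and RPL3 are shown as members without the tract at their listed start.
RPS19: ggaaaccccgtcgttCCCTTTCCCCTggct
RPS6: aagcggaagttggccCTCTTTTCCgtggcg
RPL24: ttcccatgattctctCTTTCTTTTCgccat
RPL35A: cggcggggcctcgtcCTTCTCTTaccgcca
RPS27: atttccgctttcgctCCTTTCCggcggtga
RPS27L: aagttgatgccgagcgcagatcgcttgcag
RPS4X: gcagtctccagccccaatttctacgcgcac
RPS26: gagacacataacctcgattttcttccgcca
RPL3: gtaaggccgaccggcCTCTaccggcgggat

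These windows lie, on GRCh38.p14, at chr19:41860240-41860269 (plus strand) for RPS19, chr9:19380222-19380251 (minus strand) for RPS6, chr3:101686704-101686733 (minus strand) for RPL24 and chr3:197950175-197950204 (plus strand) for RPL35A. RPS27 starts within chr1:153990747-153990776 (plus strand) and RPS27L within chr15:63157463-63157492 (minus strand). The windows of RPS4X, RPS26 and RPL3 are chrX:72277234-72277263 (minus strand), chr12:56041903-56041932 (plus strand) and chr22:39319609-39319638 (minus strand). In each window the bases after the first 15 are the start of the first exon in the 5′ UTR. The tract was 11 bases long in RPS19, 9 in RPS6 and 7 in RPS27, while the run in RPL3 was 4 bases, just below the length asked for. RPS27L, RPS4X and RPS26 had no C at the listed start.

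Library totals ran from 10334908 to 19836878 counts. Stem cell markers (POU5F1, NANOG and 5 others) summed to between 3269 and 3742 counts per 1e6 (CPM) at D0 and to at most 5.36 CPM at D70, and the progenitor gene PAX6 was at most 14.6 CPM at D0 and at least 304 CPM at D12. Libraries of the later stages stood apart. The summed CPM of 7 mesenchymal markers (collagens, LUM, DCN, POSTN and TWIST1) was 29842 in D30 TMG replicate 2, 45349 in D70 control replicate 2 and 59559.6 in D70 TMG replicate 2, against 3679 to 7334 in the other D30 and D70 libraries. At D0, control replicate 2 stood apart in another way, with 11.1% of counts in genes without a symbol and 23.7% in its 10 most abundant genes, against 4.34% to 6.82% and 7.73% to 13.7% in the other D0 libraries.

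The members are old genes with many processed pseudogenes, and the table lists 1583 pseudogenes named for a member, of which 1241 had a count. Over all libraries, 11 members had more than 50% of the summed counts of gene and copies in the copies, and the counting could have moved reads between the gene and its copies. These were RPSA (81.5%), the laminin receptor protein of the small subunit, RPS26 (81.5%), RPL32 (74.9%), RPS28, RPL17, RPL36A, RPL7, RPL41, RPL21, RPL23A and RPS3A. Per kilobase of the canonical transcript, these 11 genes had a median level of 14.9 CPM over the 16 libraries, against 193 CPM per kb for the 55 tested members with under 5% in copies. Adding the copies raised the median of the 11 to 43.0 CPM per kb, which was still below that of the 55. Values of the 11 genes are therefore uncertain as levels.

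**Figure D1:**
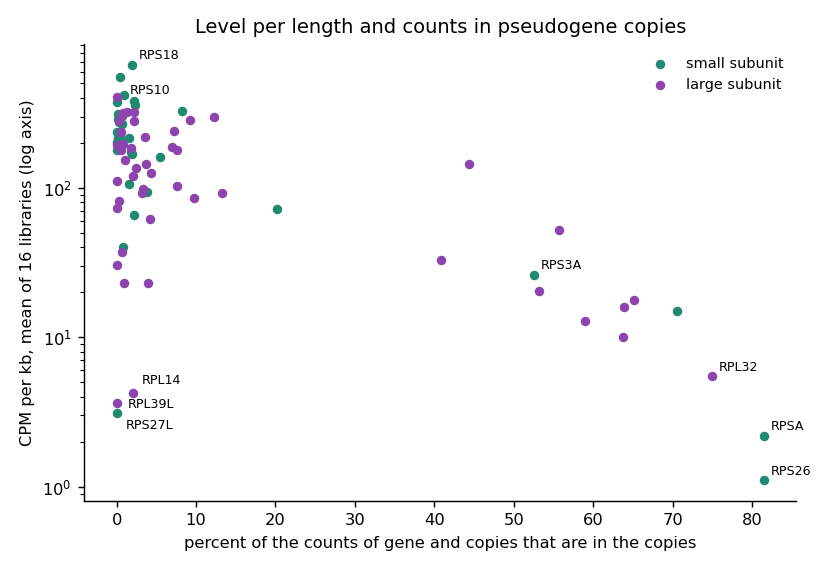
Level of each of the 79 tested members (CPM per kb of canonical transcript, mean of 16 libraries, log axis) against the percentage of counts that fell in its pseudogene copies, with small subunit genes in green and large subunit genes in purple. RPS18 and RPS10 stand highest at few copies, and RPSA, RPS26 and RPL32 stand low with most counts in copies. RPL39L, RPS27L and RPL14 are low with few or no copies.

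Levels differed widely between members. RPS18, a protein of the small subunit head, was the highest per length, at 667 CPM per kb, followed by RPS10 (549.7), RPS24 (421) and RPLP2 (407). RPL3, which binds ribosomal RNA near the peptidyl transferase centre, had the highest mean CPM without regard to length. RPS26 was the lowest tested member at 1.11 CPM per kb, with most of its reads in copies. The canonical models of RPL37, RPL14, RPS27L and RPL27A are 7573, 7136, 6110 and 4535 bases long, many times the coding sequence, and values per length of these 4 genes depend on that choice of model. The tissue-restricted paralogs RPL3L, known from skeletal and heart muscle, and RPL10L, known from testis, were the 2 members that were not tested. RPL10L had 0 counts in all 16 libraries, and RPL3L had 27 counts in all, with at most 6 in any library.

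By group mean, the family took its largest share of the RNA in stem cells and its smallest in D12 control cells. Members held 1.40 and 1.61% of all counts in the D0 control libraries and 1.57 and 1.47% in the D0 TMG libraries. At D12 the share was 0.843 and 0.764% in control and 0.941 and 1.06% with TMG. The 4 D12 libraries all lay below the 4 D0 libraries, and the control and TMG libraries overlapped at D0 but not at D12. At D30 the share was 0.899 and 1.21% in control and 0.792 and 1.01% with TMG, and at D70 it was 1.06 and 1.27% and 0.960 and 1.18%. The control and TMG libraries overlapped at both of these stages. The share is given as a description, without a test. In such bulk samples fewer cells of a type and less RNA per cell cannot be told apart. Small and large subunit genes had similar courses, from 0.608 and 0.726% to 0.374 and 0.342% for the small subunit and from 0.792 and 0.885% to 0.469 and 0.422% for the large subunit between D0 and D12 control. The pseudogene copies added between 0.0523% and 0.0873% of counts to any library.

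**Figure D2:**
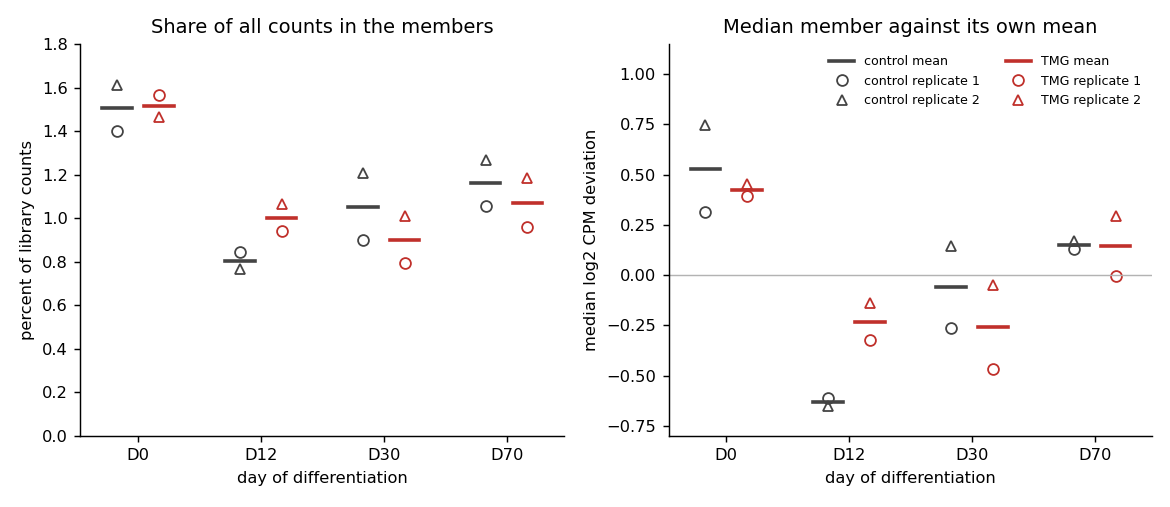
Left, share of all counts (percent of the library) that fell in the 81 members, by day. Right, median over the 79 tested members of the log2 CPM minus the mean of the same gene over all libraries. Circles are replicate 1, triangles replicate 2, bars the group means, grey control and red TMG. By group mean both measures are highest at D0 and lowest in D12 control, whose libraries lie below the D12 TMG libraries, though 1 D30 TMG library has a share between the D12 control pair.

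Nearly the whole family fell between D0 and D12 in control cells. In the edgeR quasi-likelihood test whose p-values were adjusted by Benjamini-Hochberg over all 24249 genes that passed the filter, 73 of 79 members were lower at a 5% false discovery rate (FDR) and 0 higher, where 9.71% of all genes tested were called lower and 6.97% higher. The median log2 fold change of members was -1.12, a level at D12 of 0.459 times that at D0, against 0.00 for all genes. The median was -1.11 for the 32 small subunit genes and -1.13 for the 47 large subunit genes tested. For 78 members both D12 libraries lay below both D0 libraries, where 33.2% of all genes did.

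The genes that fell furthest were RPS26, RPL12, RPS9, RPS2 and RPL17. RPL12, a protein at the base of the large subunit stalk, was at 151 and 238 CPM at D0 and 57.0 and 54.4 CPM at D12 (log2 fold change -1.80 ± 0.26 (SE), adjusted p = 0.00236). RPS9, a small subunit protein that binds ribosomal RNA early in assembly, was at 169 and 263 CPM and then 64.5 and 71.1 CPM (log2 fold change -1.67 ± 0.30 (SE), adjusted p = 0.00559). RPS2, which sits near the mRNA entry channel, was at 104 and 162 CPM at D0 and 46.4 and 38.5 CPM at D12 (log2 fold change -1.65 ± 0.26 (SE), adjusted p = 0.00302). In these 3 genes the higher D0 value came from control replicate 2, and both D12 libraries lay far below either. RPL17, at the polypeptide exit tunnel, was at 18.5 and 19.7 CPM and 6.78 and 5.75 CPM (log2 fold change -1.61 ± 0.26 (SE), adjusted p = 0.00347), and most reads named for this gene were in copies. RPS26, at the mRNA exit channel, had only 36 and 50 counts at D0 and 9 and 17 counts at D12 (log2 fold change -2.05 ± 0.53 (SE), adjusted p = 0.0254), so its fold is the least precise of the 5.

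The acidic stalk proteins, which recruit the translation factors, fell with the rest. RPLP0, the base of the stalk, was at 342 and 442 CPM at D0 and 197 and 197 CPM at D12 (log2 fold change -0.99 ± 0.21 (SE), adjusted p = 0.0108). RPLP1 was at 269 and 323 CPM and 129 and 138 CPM (log2 fold change -1.15 ± 0.27 (SE), adjusted p = 0.0165), and RPLP2 at 227 and 371 CPM and 123 and 114 CPM (log2 fold change -1.33 ± 0.29 (SE), adjusted p = 0.0128). The D12 libraries of all 3 genes lay below the D0 libraries. RPL5 and RPL11, which with 5S ribosomal RNA form the particle that binds MDM2 when ribosome assembly is disturbed, fell by a log2 fold change of 0.91 and 1.02 (adjusted p = 0.0103 and 0.0301, edgeR). RPL22, a large subunit protein that is dispensable for translation in many cells, was at 73.8 and 105 CPM and then 43.3 and 38.9 CPM (log2 fold change -1.12 ± 0.27 (SE), adjusted p = 0.0183).

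In the small subunit, RPS6, the substrate of the S6 kinases, was at 375 and 357 CPM at D0 and 164 and 155 CPM at D12 (log2 fold change -1.20 ± 0.28 (SE), adjusted p = 0.0165). RPS19, the gene most often mutated in Diamond-Blackfan anaemia, was at 450.3 and 720.4 CPM and 321 and 334 CPM (log2 fold change -0.84 ± 0.22 (SE), adjusted p = 0.0289). RPS4X was at 227 and 248 CPM and 144 and 151 CPM (log2 fold change -0.68 ± 0.21 (SE), adjusted p = 0.0463), one of the smallest falls that passed the test. RPSA had 52 and 59 counts at D0 and 47 and 20 at D12, did not pass the test (log2 fold change -1.10 ± 0.45 (SE), adjusted p = 0.115), and had a log2 fold change of 0.27 once copies were added.

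Among the paralogs, RPS27L, a p53 target that differs from RPS27 in a few residues, was the single member with a positive value at D12, at 16 and 18.7 CPM at D0 and 23.2 and 23.9 CPM at D12, with both D12 libraries above both D0 libraries, and it did not pass the test (log2 fold change 0.44 ± 0.20 (SE), adjusted p = 0.150). RPS27 itself was at 132 and 258 CPM and 74.4 and 81.2 CPM (log2 fold change -1.32 ± 0.30 (SE), adjusted p = 0.0143). RPL39L, a near-copy of RPL39 that is highest in male germ cells and some cancers, was at 4.33 and 5.95 CPM and 2.31 and 2.08 CPM (log2 fold change -1.22 ± 0.35 (SE), adjusted p = 0.0371), and RPL39 at 98.5 and 153 CPM and 69.1 and 73.7 CPM (log2 fold change -0.82 ± 0.24 (SE), adjusted p = 0.0399). RPL3, the parent of RPL3L, fell with adjusted p = 0.00630 (log2 fold change -1.21), RPL10, the parent of RPL10L, with adjusted p = 0.0179 (-1.21), and RPL36A with adjusted p = 0.00876 (-1.56), all by edgeR. Besides RPS27L, the members that did not pass included RPS3A, RPL7, RPL21 and RPSA, with log2 fold changes of -0.70, -0.86, -0.85 and -1.10.

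The number of calls rested on few libraries while the median did not. Without D0 control replicate 2 the median was -0.92 and 19 members passed, without D12 control replicate 1 it was -1.17 with 16 members, and without D12 control replicate 2 it was -1.15 with 14 members. Scaling by the summed counts of the members, which asks whether a gene moved relative to the family, shifted the median of all genes by 1.07 and left 2 members past the threshold: RPL12 stayed lower and RPS27L was higher (1.52). Under that scaling RPLP0, RPL5, RPL11, RPS19, RPS4X and RPL39 had positive values without passing, since they fell less than the family's summed counts.

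Other genes of ribosome production fell in the same comparison. Of 37 ribosome assembly and RNA polymerase I genes, 26 were lower and 0 higher at 5% FDR (median log2 fold change -1.07), among them MYBBP1A, a nucleolar regulator of ribosomal RNA genes (-1.39 ± 0.19, adjusted p = 0.00180), NHP2, of the H/ACA particles that pseudouridylate RNA (-1.33 ± 0.20, adjusted p = 0.00258), and NOP56, of the C/D particles that methylate it (-1.93 ± 0.29, adjusted p = 0.00264). Of 8 host genes of small nucleolar RNAs 5 were lower (median -1.68), including GAS5 (-1.90 ± 0.37, adjusted p = 0.00745) and SNHG1 (-1.46 ± 0.24, adjusted p = 0.00358). Of a list of 16 other genes with TOP mRNAs 9 were lower (median -0.80), including EEF1B2, an exchange factor of elongation factor 1 (-1.43 ± 0.25, adjusted p = 0.00527). Most of these 16 encode translation factors, while HNRNPA1, TPT1, NACA and BTF3 do not. Of the 7 ribosomal proteins and paralogs with other names 5 were lower (median -1.03), and RPL22L1, the paralog of RPL22, fell the most of the 4 with the lowest p (-2.79 ± 0.46, adjusted p = 0.00379). Of 76 mitochondrial ribosomal protein genes 27 were lower (median -0.89). Of 13 genes of mTOR signalling and TOP mRNA control 2 were lower, LARP1 (-0.95 ± 0.17, adjusted p = 0.00526) and RHEB (-0.70 ± 0.20, adjusted p = 0.0340), both by edgeR. Markers of dividing cells had negative values in all 10 genes, with 3 of 10 lower at 5% FDR and a summed level of 2150.0 and 2086 CPM at D0 and 988 and 881 CPM at D12. No marker on that list was at 0 in any of these libraries. Stem cell markers had negative values in 7 of 7 genes (median -4.29, 6 called lower). Mesenchymal markers had positive values in 5 of 7 (median 2.78, 0 called). Neuron markers were positive in 6 of 8 (median 0.98, 1 called higher) and progenitor markers in 4 of 6 (1.13, 2 called higher). The part of these marker lists in the change of the members was not tested.

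The medians of members with and without the TOP tract shown above lay close together, and the difference was not tested. These classes rest on the listed starts, and a start placed some bases away could change the class of a gene. The median log2 fold change was -1.15 for the 46 members with the tract, of which 43 were called lower, and -1.03 for the 17 tested members with a listed start but no tract, of which 16 were. Outside the family, 903 tested genes with the tract had a median of -0.17, with 14.5% called lower, against -0.06 and 11.5% for the 13257 tested genes with a listed start but no tract, the 17 members included. RPS27, with its tract of 7 bases, had a log2 fold change of -1.32, and RPS27L, with none at its listed start, 0.44. RPS4X, RPS26 and RPL3, which also lack the tract at the 1 start listed for each, had -0.68, -2.05 and -1.21.

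Between D12 and D30 in control cells 8 members rose at 5% FDR in edgeR and 0 fell, where 1.91% of all genes were called higher and 1.69% lower. Values were positive for 77 of 79 members, with a median log2 fold change of 0.56 against -0.04 for all genes. Both D30 libraries lay above both D12 libraries in 59 members, where 28% of all genes did. RPL35A, a large subunit protein, was at 97.2 and 87.9 CPM at D12 and 166 and 167 CPM at D30 (log2 fold change 0.85 ± 0.15 (SE), adjusted p = 0.0160). RPL23, a large subunit protein that can bind MDM2, was at 151 and 131 CPM and 236 and 269 CPM (log2 fold change 0.84 ± 0.15 (SE), adjusted p = 0.0193). RPS14, of the small subunit platform, was at 88.6 and 89.5 CPM and 142 and 168 CPM (log2 fold change 0.80 ± 0.17 (SE), adjusted p = 0.0319). In these 3 genes the replicates lay close together and the stages did not overlap. RPS3A was at 16.6 and 10.7 CPM and 29.2 and 26.6 CPM (log2 fold change 1.03 ± 0.22 (SE), adjusted p = 0.0327), and RPL32 at 7.57 and 6.41 CPM and 14.4 and 13.6 CPM (log2 fold change 1.00 ± 0.24 (SE), adjusted p = 0.0463). RPL32 had a log2 fold change of -0.23 once its copies were added, so its direction depends on whether they are counted. RPL24, RPL34 and RPS7 made up the 8. The shares of all genes given above are those of the edgeR fit of all 16 libraries, and none is given for the fits that follow. No member passed without D12 control replicate 1 or 2 or without D30 control replicate 1 or 2, in a test that then took the lone library to vary like the other groups, and DESeq2 called 21 members higher.

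The ribosome assembly genes were divided over this interval. Of the 37 genes 15 had positive values and 1 was called, NOP2, a ribosomal RNA methyltransferase, which was lower (-0.95 ± 0.20, adjusted p = 0.0295). Of the 16 listed TOP mRNA genes 13 had positive values (median 0.56) and 1 was called, EIF3E, a subunit of initiation factor 3, which was higher (0.91 ± 0.21, adjusted p = 0.0426). Markers of dividing cells had negative values in all 10 genes, with 4 called lower by edgeR and a summed level of 325 and 299.6 CPM at D30. Mesenchymal markers did not overlap between the stages, at 1048 and 1192 CPM at D12 and 4344 and 5174 CPM at D30, with 6 of 7 positive (median 2.69) and 0 called higher. Stem cell markers were negative in 6 of 7, with 2 called lower, progenitor markers positive in 3 of 6 (median -0.06) and neuron markers positive in 3 of 8 (median -0.44). The part of these lists in the members' values was not tested. The D12 control libraries are shared by this comparison, the one with D0 and the one with D12 TMG.

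From D30 to D70 control no member passed 5% FDR in edgeR, with 2 higher at unadjusted p under 0.05, and 1 member was called by DESeq2, where 0.305% of all genes were called higher and 0.0784% lower, and 10.8% were higher at unadjusted p under 0.05. The median log2 fold change was 0.21, and in 28 members both D70 libraries lay above both D30 libraries, where 24% of all genes did. The lowest p was that of RPS6, at 153 and 204 CPM at D30 and 317 and 373 CPM at D70 (log2 fold change 0.95 ± 0.28 (SE), adjusted p = 0.124), which DESeq2 called. RPL12 (0.63) and RPLP1 (0.58) came next. Mesenchymal markers were at 4344 and 5174 CPM at D30 and 7334 and 45349 CPM at D70, with 7 of 7 positive (median 3.10, 0 called). Neuron markers were positive in 6 of 8 (1.21, 0 called) and dividing-cell markers in 6 of 10 (0.01, 0 called). Stem cell markers were negative in 6 of 7 (-0.66, 2 called lower) and progenitor markers in 4 of 6 (-0.24, 0 called). The part of these lists in the members' values was not tested.

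Over the whole course in control cells 9 members were lower at D70 than at D0 and 0 higher, by edgeR, beside 14.7% of all genes called lower and 15% higher, so the share of members called was below that of all genes. The median log2 fold change was -0.36, and in 44 members both D70 libraries lay below both D0 libraries, where 32.7% of all genes did. Dividing-cell markers were negative in 10 of 10 genes (median -2.96, 10 called lower) and stem cell markers in 7 of 7 (-9.76, 7 called lower). Mesenchymal markers were positive in 7 of 7 (7.45, 5 called higher) and neuron markers in 8 of 8 (1.62, 1 called higher). Progenitor markers were positive in 3 of 6 (0.91, 2 called higher and 1 lower). The part of these lists in the members' values was not tested. RPS2 was at 64.5 and 53.1 CPM at D70 (log2 fold change -1.18 ± 0.25 (SE), adjusted p = 0.00661), and RPL17 at 10.2 and 8.29 CPM (log2 fold change -1.05 ± 0.26 (SE), adjusted p = 0.0120). RPL39L was at 2.38 and 1.93 CPM (log2 fold change -1.25 ± 0.35 (SE), adjusted p = 0.0227), and RPS28, a small subunit protein near the mRNA exit, at 18.6 and 15.5 CPM after 25.1 and 39.9 CPM (log2 fold change -0.93 ± 0.26 (SE), adjusted p = 0.0222). These 4 genes were lower in both D70 libraries than in both D0 libraries. RPS26 had 9 and 7 counts at D70 (log2 fold change -2.31 ± 0.55 (SE), adjusted p = 0.0106). RPL14, RPL8, RPS21 and RPS16 were the others. The count rested on single libraries, since no member passed without D0 control replicate 2, and 2 and 3 passed without D70 control replicate 1 and 2. RPL39L (-1.08) and RPS28 (-0.78) no longer passed in edgeR when the 3 libraries high in mesenchymal markers were left out together, which left 1 D70 control library whose spread was taken from the other groups.

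**Figure D3:**
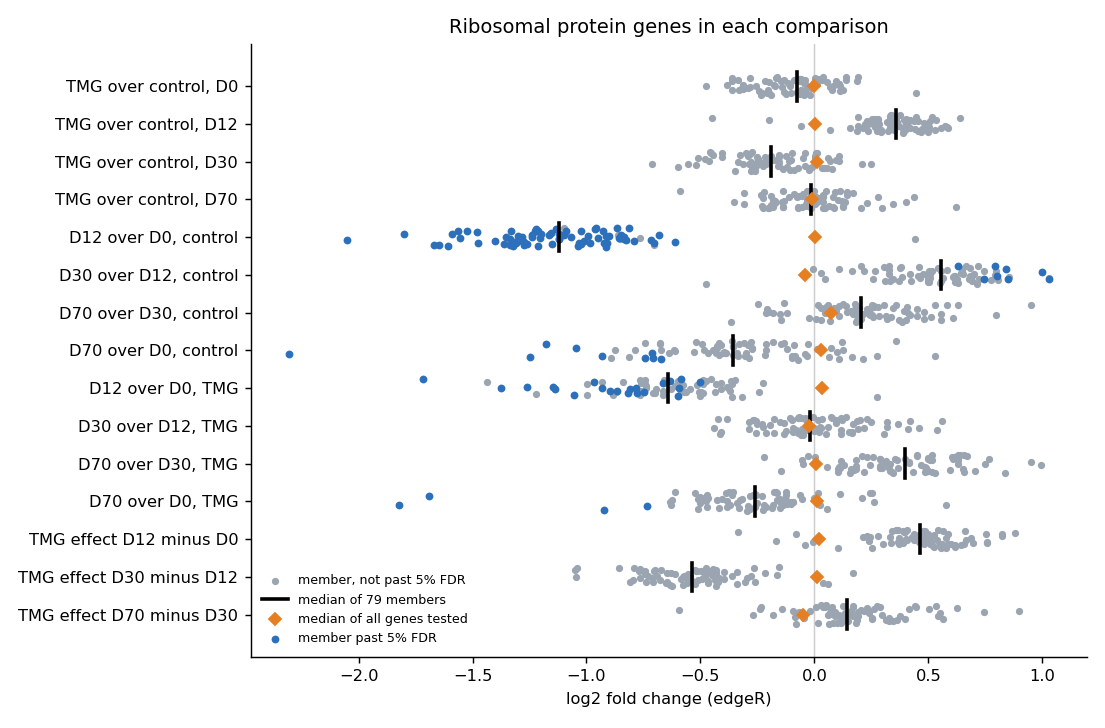
Log2 fold change (edgeR) of each of the 79 tested members in the 15 comparisons, blue where past 5% FDR and grey otherwise. Black bars are the medians of members and orange diamonds the medians of all genes tested. The members lie together to the left for D12 over D0 in control, less far left for the same step with TMG, and to the right for TMG over control at D12, where none is blue.

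With TMG, too, members fell from D0 to D12, though fewer passed the test than in control. In edgeR 21 of 79 were lower at 5% FDR and 0 higher, where 9.19% of all genes were called lower and 7.24% higher, and the median log2 fold change was -0.64, a level of 0.640 times that at D0. For 78 members both D12 TMG libraries lay below both D0 TMG libraries, where 36.4% of all genes did. RPL17 was at 19.3 and 17.0 CPM at D0 and 8.0 and 5.96 CPM at D12 (log2 fold change -1.38 ± 0.26 (SE), adjusted p = 0.00645). RPL12 was at 168 and 178 CPM and 73.5 and 82.8 CPM (log2 fold change -1.15 ± 0.26 (SE), adjusted p = 0.0145), and RPS2 at 127 and 86.7 CPM and 47.8 and 49.0 CPM (log2 fold change -1.14 ± 0.25 (SE), adjusted p = 0.0135). RPL39L was at 5.15 and 5.0 CPM and 1.92 and 2.30 CPM (log2 fold change -1.26 ± 0.35 (SE), adjusted p = 0.0330). The stages did not overlap in any of the 4. RPS26 had a log2 fold change of -1.72 (adjusted p = 0.0468, edgeR). RPS27L was again the single member with a positive value, at 13.3 and 15.2 CPM and 19.4 and 15 CPM, and its stages overlapped (log2 fold change 0.27 ± 0.20 (SE), adjusted p = 0.377). Without D0 TMG replicate 1 or D12 TMG replicate 2 no member passed, without D0 TMG replicate 2 there were 2 and without D12 TMG replicate 1 there was 1, while the median stayed between -0.73 and -0.57 in those 4 fits. Dividing-cell markers had negative values in 10 of 10 genes over this step (median -1.33, 3 called lower) and stem cell markers in 7 of 7 (median -3.96, 5 called lower). Mesenchymal markers had positive values in 7 of 7 (median 3.25, 0 called), neuron markers in 6 of 8 (median 1.28, 1 called higher) and progenitor markers in 4 of 6 (median 0.37, 2 called higher and 1 lower). The part of these 5 lists in the members' values was not tested.

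The later steps with TMG differed in value from those in control. From D12 to D30 the median log2 fold change was -0.02 and no member passed in edgeR (1 higher at unadjusted p under 0.05, and 1 called by DESeq2), where edgeR called 0.388% of all genes higher and 0.124% lower at 5% FDR and 7.86% higher at unadjusted p under 0.05. The member with the lowest p in both tools was RPL35A, at 121 and 131 CPM and then 159.9 and 175 CPM (log2 fold change 0.41 ± 0.15 (SE), adjusted p = 0.231). RPS29 (0.56) and RPL35 (-0.44) came next. From D30 to D70 the median was 0.40 with 0 members called by edgeR or DESeq2, 16 higher at unadjusted p under 0.05 by edgeR beside 6.45% of all genes, and 0.00412% of all genes called higher at 5% FDR. Both D70 TMG libraries lay above both D30 TMG libraries in 39 members, where 14.9% of all genes did. With 1 library left out the median lay between 0.19 and 0.59. Of other lists, 35 of 37 ribosome assembly genes (median 0.32) and 69 of 76 mitochondrial ribosomal protein genes (median 0.31) had positive values, and negative values were found in 7 of 10 dividing-cell markers (median -0.64), 6 of 7 stem cell markers (-3.52, 1 called lower), 5 of 8 neuron markers (-0.34) and 4 of 6 progenitor markers (-0.31). Mesenchymal markers were at 5595 and 29842 CPM and 3679 and 59559.6 CPM, high in replicate 2 of both stages. The part of these lists in the members' values was not tested. RPL36A, at 6.51 and 8.99 CPM and 13.5 and 17.4 CPM (log2 fold change 0.99 ± 0.31 (SE), adjusted p = 0.361), had the lowest p, and RPS6 and RPL8 followed, with 0.77 and 0.61. Between D0 and D70 with TMG edgeR called 4 members lower, where 14.1% of all genes were and 14.9% were higher, and the median was -0.26. In 45 members both D70 TMG libraries lay below both D0 TMG libraries, where 35.5% of all genes did. Dividing-cell markers were negative in 10 of 10 genes (median -2.53, 10 called lower) and stem cell markers in 7 of 7 (-10.07, 7 called lower). Mesenchymal markers were positive in 7 of 7 (8.69, 6 called higher) and neuron markers in 8 of 8 (1.77, 0 called). Progenitor markers were negative in 4 of 6 (-0.74, 2 called higher and 2 lower). The part of these lists over this step was not tested either. The 4 called members were RPL39L, at 5.15 and 5.0 CPM and then 1.74 and 1.11 CPM (log2 fold change -1.82 ± 0.36 (SE), adjusted p = 0.00450), RPS26 (-1.69), RPL17 (-0.92) and RPS2 (-0.74). Leaving out the 3 libraries high in mesenchymal markers left 1 D70 TMG library, whose spread was taken from the other groups, and gave log2 fold changes of -1.51, -1.34, -0.76 and -0.60 in the same order, of which that of RPL39L passed in edgeR.

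At D12 the members were higher in value with TMG than in control, without a single call. Of 79 members 76 had a positive log2 fold change, with a median of 0.36 (a level 1.28 times that of control) against 0.00 for all genes. Both TMG libraries lay above both control libraries in 70 members, where 17.8% of all genes did. In the edgeR test 0 members passed 5% FDR and 0% of all genes did, 10 members were higher at unadjusted p under 0.05 where 1.54% of all genes were, and DESeq2 called 0. RPL35A was at 97.2 and 87.9 CPM in control and 121 and 131 CPM with TMG (log2 fold change 0.44 ± 0.15 (SE), adjusted p = 1.00, unadjusted p = 0.0113). RPL26, a large subunit protein that also binds p53 mRNA, was at 74.7 and 69.7 CPM and 92.8 and 105 CPM (log2 fold change 0.45 ± 0.15 (SE), adjusted p = 1.00, unadjusted p = 0.0136). RPL34 was at 45.4 and 44 CPM and 59.6 and 64.2 CPM (log2 fold change 0.47 ± 0.17 (SE), adjusted p = 1.00, unadjusted p = 0.0200). In these 3 genes, which had the lowest p, the groups did not overlap.

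RPS6 was at 164 and 155 CPM in control and 211 and 242 CPM with TMG at D12 (log2 fold change 0.51 ± 0.28 (SE), adjusted p = 1.00), and RPLP0 at 197 and 197 CPM and 219 and 283 CPM (log2 fold change 0.35 ± 0.21 (SE), adjusted p = 1.00). RPS27L went the other way, at 23.2 and 23.9 CPM in control and 19.4 and 15 CPM with TMG (log2 fold change -0.45 ± 0.20 (SE), adjusted p = 1.00), and was the 1 member lower at unadjusted p under 0.05, where 0.936% of all genes were. The median of members was 0.26 without D12 TMG replicate 2, 0.47 without D12 TMG replicate 1 and 0.31 with plain library totals. Of the 16 listed TOP mRNA genes all 16 were positive (median 0.32, none called), while the 37 ribosome assembly genes had a median of 0.05 and the 76 mitochondrial ribosomal protein genes 0.06. Markers of dividing cells overlapped between the groups, at 988 and 881 CPM in control and 731 and 1208 CPM with TMG, as did stem cell markers, at 545 and 593 CPM and 522 and 681 CPM. Progenitor markers did not overlap, at 1850.5 and 1744 CPM in control and 1728 and 1506 CPM with TMG, with 5 of 6 negative (median -0.38). Mesenchymal markers overlapped in sum, at 1048 and 1192 CPM and 1151 and 1837 CPM, but 6 of 7 were positive with TMG (median 1.14), among them COL3A1, at 8.94 and 29.2 CPM in control and 35.8 and 128 CPM with TMG. Neuron markers overlapped in sum, at 493 and 839 CPM in control and 739.9 and 879.5 CPM with TMG, with 6 of 8 positive (median 0.37). Of these 5 lists no gene passed 5% FDR in edgeR, and their part in the members' values was not tested.

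At the other stages no member passed 5% FDR between TMG and control in edgeR or DESeq2, and 0% of all genes passed in edgeR. At D0 the median log2 fold change was -0.08 with 0 members at unadjusted p under 0.05 in edgeR, where 0.367% of all genes were higher and 0.895% lower, and it was 0.11 without D0 control replicate 2. RPS27, RPL13 and RPL21 had the lowest p. RPS27 was at 132 and 258 CPM in control and 124 and 156 CPM with TMG, so the 2 groups overlapped (log2 fold change -0.48 ± 0.29 (SE), adjusted p = 1.00). RPL13 had -0.36 and RPL21 0.45. With 1 library left out RPL13 ranged from -0.62 to -0.05 and RPL21 from 0.30 to 0.59. RPL13 was at 273 and 404 CPM in control and 275 and 252 CPM with TMG.

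At D30 62 of 79 members had negative values with TMG, with a median of -0.19, and 1 member was lower at unadjusted p under 0.05 in edgeR, where 4.89% of all genes were lower and 7.1% higher. Both TMG libraries lay below both control libraries in 20 of 79 members, a share near the 21% of all genes. The member with the lowest p was RPL32, at 14.4 and 13.6 CPM in control and 8.35 and 10.1 CPM with TMG (log2 fold change -0.60 ± 0.24 (SE), adjusted p = 0.359), and its log2 fold change was 0.08 with copies added. RPL18 was at 142 and 203 CPM and 115 and 137 CPM (log2 fold change -0.45 ± 0.20 (SE), adjusted p = 0.420). The TMG libraries of RPL32 and RPL18 all lay below the control libraries. The median of members was 0.01 without D30 control replicate 2 and -0.37 without D30 TMG replicate 2, the library high in mesenchymal markers. Markers of 3 cell groups were higher in both D30 TMG libraries than in both controls, without a gene past 5% FDR in edgeR. Dividing-cell markers were at 325 and 299.6 CPM in control and 392 and 792 CPM with TMG (10 of 10 positive, median log2 fold change 0.96), neuron markers at 566 and 684 CPM and 834 and 1089.6 CPM (7 of 8 positive, median 1.14), and mesenchymal markers at 4344 and 5174 CPM and 5595 and 29842 CPM (7 of 7 positive, median 3.19). Progenitor markers overlapped in sum but had negative values in 5 of 6 genes (median -0.36), at 2558 and 2789 CPM in control and 2432 and 3476 CPM with TMG. Stem cell markers, at 60.1 and 32.3 CPM and 83.5 and 28.9 CPM, were positive in 6 of 7 (median 0.74). None of these genes passed 5% FDR in edgeR either, and the part of the 5 lists in the members' values was not tested. At D70 the median was -0.01, with 0 members at unadjusted p under 0.05 in edgeR where 2.61% of all genes were higher and 2.88% lower, and -0.16 without the 3 libraries high in mesenchymal markers. RPL9 (-0.31), RPL39L (-0.59) and RPL35A (-0.23) had the lowest p there. With 1 library left out RPL9 ranged from -0.62 to -0.05, RPL39L from -0.96 to -0.31 and RPL35A from -0.29 to -0.14.

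The differences between the arms were tested directly as interactions, and 0 members passed 5% FDR in any of the 3 by edgeR or DESeq2. In edgeR 0% of all genes passed. The smaller fall from D0 to D12 with TMG is therefore a difference in value: the median of the members' interaction was 0.46 against 0.02 for all genes, 74 of 79 were positive, and 0 had an unadjusted p under 0.05 in edgeR (2 in DESeq2), where 0.685% of all genes were higher. RPL13 (0.76 ± 0.35), RPL23 (0.46 ± 0.22) and RPL26 (0.44 ± 0.22) had the lowest p. With 1 library left out the median of this interaction lay between 0.24 and 0.63. For D12 to D30 the median was -0.54, 76 of 79 were negative, and 16 members had an unadjusted p under 0.05 where 1.59% of all genes were lower. RPL32 (-1.05 ± 0.34), RPL23 (-0.68 ± 0.22) and RPS14 (-0.71 ± 0.24) had the lowest p, and RPL32 was at 0.02 with copies added. This median was -0.36 without D30 control replicate 2 and -0.78 without D30 TMG replicate 2. For D30 to D70 it was 0.14 with 0 members at unadjusted p under 0.05 in edgeR, where 1.61% of all genes were higher, and RPL36A (0.90 ± 0.44) had the lowest p, before RPL32. The D12 libraries of both arms enter the first 2 interactions, with opposite sign.

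**Figure D4:**
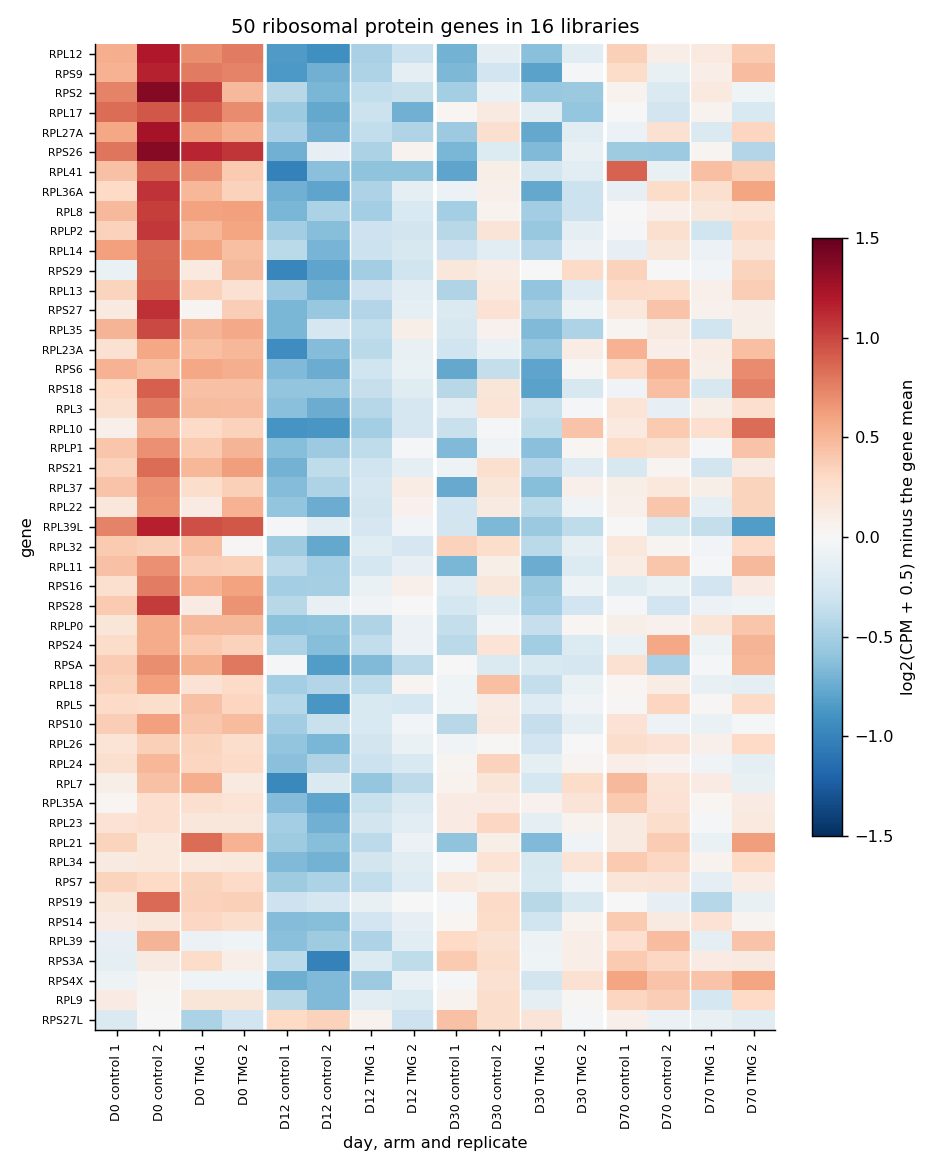
Log2(CPM + 0.5) of the 50 tested members named in the text in the 16 libraries, minus the mean of that gene, in the order of the change from D0 to D12 in control. Red is above and blue below the mean of the gene. The D0 libraries are red for most genes and D0 control replicate 2 is the reddest, the D12 control libraries are blue for nearly all genes with RPS27L red in the last row, and replicate 1 at D30 is bluer than replicate 2 in both arms for most genes.

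Across the 8 groups, 67 of the 79 members had their lowest mean CPM in D12 control, 8 in D30 TMG and 1 in D12 TMG. The highest mean was in D0 control for 51, in D0 TMG for 17 and in D70 control or TMG for 7 and 3. Means of neighbouring groups often differed by less than the gap between their 2 libraries. For RPS6, for example, the D30 control libraries (153 and 204 CPM) enclosed those of D12 control (164 and 155 CPM).

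Members kept a similar ratio to each other through the course. Relative to the mean log2 level of the family in the same library, the range over the 8 group means had a median of 0.45 and was under 1 for 76 of 79 members and under 0.5 for 43. The 5 widest were RPS26, RPS27L, RPL39L, RPS3A and RPS4X, and the ranges below are descriptions without a test. RPS26 went from -5.36 in D0 TMG to -7.18 in D70 control, a range of 1.81, on few counts. RPS27L went from -3.10 in D0 TMG to -1.36 in D12 control and was back at -2.44 in D70 control, a range of 1.74. RPL39L went from -4.57 in D0 TMG to -6.04 in D70 TMG.

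RPS4X had the smallest spread between replicates of these 5, a mean within-group SD of 0.10, and its level relative to the family was higher at each later stage in both arms. It was 0.87, 1.29, 1.57 and 1.75 from D0 to D70 in control and 0.90, 1.31, 1.63 and 1.77 with TMG. The D0 and D70 libraries did not overlap on this scale in either arm. In CPM, RPS4X was at 362 and 325 at D70 in control and 325 and 362 with TMG, above all 4 D0 libraries, and missed the threshold in edgeR in both arms (log2 fold change over D0 0.53 ± 0.21, adjusted p = 0.0759 in control, and 0.58 ± 0.21, adjusted p = 0.0580 with TMG). RPS4X is among the 5 members picked for a wide range relative to the family in these same libraries, so a fit scaled to the family is no separate support. The gene passed in both arms, as higher, in DESeq2 (adjusted p = 0.0454 in control and 0.0206 with TMG) and in the edgeR fit scaled to the summed members (adjusted p = 0.0133 and 0.0148). Without the 3 libraries high in mesenchymal markers it passed in control (adjusted p = 0.0426) and not with TMG (adjusted p = 0.0874), both by edgeR, with 1 D70 library left in each arm, whose spread was taken from the other groups, and log2 fold changes of 0.63 and 0.52.

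**Figure D5:**
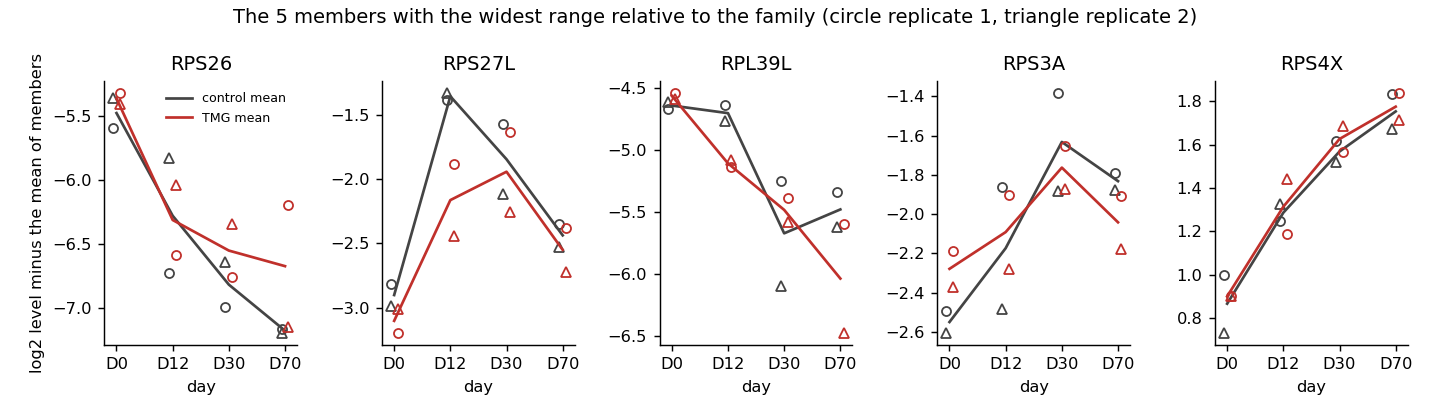
Log2 level minus the mean log2 level of the 79 tested members in the same library, by day, for the 5 members with the widest range over the group means. Lines join group means (grey control, red TMG), circles are replicate 1 and triangles replicate 2, and each panel has its own vertical axis. RPS4X is higher at each later stage in both arms, RPS27L is highest at D12 control, and RPS26 and RPL39L are lower at D70 than at D0.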

How the data were processed

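Ribosomal-RNA-depleted total RNA from 16 H9 libraries was sequenced by the authors, 2 biological replicates at each of 4 stages with TMG or DMSO. Per the labels and the study's methods, reads were aligned with Bowtie2 to hg19, and RSEM 1.2.12 gave estimated counts (expected counts) per Ensembl GRCh37 gene, which were deposited as 1 table with 16 columns, mapped to samples by name. RSEM divides reads that match several places between them, so a member and its pseudogene copies share reads. Whether the counting used strand is not given in the sources used here, so antisense overlaps cannot be told apart. Library totals ran from 10334908 to 19836878, and a gene with few counts, such as RPS26, has a wide counting error. Groups were taken from sample titles, which the description codes match. The treatment label goes against the title in 8 libraries.

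Counts were rounded to whole numbers, filtered with filterByExpr (minimum count 10, minimum total 15) and fitted in edgeR 4.0.16 (R 4.3.3) with TMM factors and 1 quasi-likelihood model of 8 groups, leaving 8 residual degrees of freedom. The study's own test was DESeq2; DESeq2 1.42.0 was run here as an alternative. The 15 comparisons were TMG over control at each stage, stage steps within each arm and interactions. P-values were adjusted over the 24249 genes tested in each comparison, at 5% FDR. CPM values use TMM-scaled library sizes, and shares use plain totals. Levels per kb use GENCODE 44 canonical transcripts, and start sequences come from RefSeq on GRCh38.p14, matched for 64 of 81 members. The scripts were tested on simulated data. The genes named in each comparison were the 5 called members with the largest change, or the 3 with the lowest p where none was called. Also named were members of known role (RPLP0, RPLP1, RPLP2, RPSA, RPS6, RPL5, RPL11, RPS19, RPL22, RPS4X), paralogs with their parents, the lowest and highest member and the 5 with the widest range relative to the family. Other members named for copies, length or level were picked after their values were seen. Some genes that the rule covers are not reported here. The members and lists were chosen with earlier results of these data known. The alternatives were DESeq2, RLE factors, TMM factors without the members, scaling to the summed members, no filter, replicate blocks, the 4 libraries of a stage or the 8 control libraries alone, copies added, and each library left out. Plain library totals and leaving out the 3 libraries highest in mesenchymal markers were chosen after seeing the data.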

Additional observations from a re-analysis of the deposited data

How the results depend on the processing

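The fall of the members from D0 to D12 in control kept its direction in every fit, though the one scaled to the members' summed counts sets the family's own change near 0 by construction. With that scaling the medians were -0.0357 for this step, 0.0125 for D30 over D12 and -0.0056 for D70 over D0 in control, -0.0189, -0.0048 and -0.0242 for D12 over D0, D70 over D30 and D70 over D0 with TMG, -0.0056 for TMG over control at D12, and 0.0128 and 0.0235 for the interactions of D12 with D0 and of D30 with D12. The counts of called members were then 2, 0 and 3 in control (D12 over D0, D30 over D12, D70 over D0) and 0 and 2 with TMG (D12 over D0, D70 over D0), and the D12 over D0 control values of RPLP0 (0.10), RPL5 (0.15), RPL11 (0.0622), RPS19 (0.28), RPS4X (0.39) and RPL39 (0.30) and the D12 with D0 interaction of RPL26 (-0.0099) changed sign. Counts of calls for the stage steps also moved in other fits, and the cause was not tested. The share of all genes called is not given for DESeq2, for these other fits or for those with libraries left out or a replicate block. Whether the members gained or lost more calls than all genes did therefore cannot be read from these counts. In control, the 8 members called for D30 over D12 became 21 with DESeq2, 3 without the filter, 1 with plain totals, 0 in the 8 control libraries alone and 29 without the 3 libraries high in mesenchymal markers (1 each of D30 TMG, D70 control and D70 TMG, so that 1 library was left in those groups). The 0 called for D70 over D30 became 1 with DESeq2 and 1 without those 3 libraries. The 9 called for D70 over D0 became 15 with DESeq2, 15 with plain totals, 2 without the filter and 5 in the control libraries alone. With TMG, the 21 for D12 over D0 became 37 with DESeq2, 11 without the filter and 44 without the 3 libraries, the 0 for D30 over D12 became 1 with DESeq2, and the 4 for D70 over D0 became 20 with plain totals (median -0.51), 1 without the filter and 7 without the 3 libraries, where the D30 with D12 interaction had a median of -0.81. Plain totals moved the median of all genes by over 0.1 in some comparisons, to 0.18 for D12 over D0 and -0.20 for D30 over D12 in control and -0.23 for D70 over D0 with TMG. Adding the pseudogene copies changed the sign of RPSA for D12 over D0 in control (0.27) and of RPL32 in 4 comparisons: TMG at D30 (0.0761), D30 over D12 in control (-0.23), and the interactions of D30 with D12 (0.0171) and of D70 with D30 (-0.11). It raised the members' mean share of counts to 1.60% in D0 TMG and 0.873% in D12 control. No gene matched the mitochondrially encoded list, so that denominator was not run.

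With 1 library left out, the remaining one of its group was assumed to vary like the other groups. Called members then ranged from 14 to 75 for D12 over D0, 0 to 12 for D30 over D12 and 0 to 14 for D70 over D0 in control, and from 0 to 30 for D12 over D0 and 1 to 5 for D70 over D0 with TMG. The median of members ranged from -1.31 to -0.92 for D12 over D0, 0.35 to 0.77 for D30 over D12, 0.06 to 0.40 for D70 over D30 and -0.55 to -0.13 for D70 over D0 in control. With TMG it ranged from -0.73 to -0.57, -0.21 to 0.19, 0.19 to 0.59 and -0.44 to -0.10 for the same steps. For TMG over control it ranged from -0.28 to 0.11 at D0, 0.26 to 0.47 at D12, -0.37 to 0.01 at D30 and -0.18 to 0.13 at D70, and for the 3 interactions from 0.24 to 0.63, -0.78 to -0.36 and -0.0371 to 0.39. RPS27 for TMG at D0 ranged from -0.88 to 0.0858, with the change of sign without D0 control replicate 2. No comparison of TMG with control and no interaction had a called member in any of these fits.

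The replicate numbers did not pair the libraries at every stage. The difference between replicates correlated between the arms, across genes, with r = 0.0453 at D0, 0.367 at D12, 0.223 at D30 and 0.607 at D70. When the number entered the model as a block across the 16 libraries, 13 members were called for D30 over D12, 17 for D70 over D0 in control, 38 for D12 over D0 and 8 for D70 over D0 with TMG, and 0 for TMG over control at any stage. RPS26, RPSA and RPL39L rest on the fewest counts among the tested members, and RPS26 and RPSA also had most of their reads in copies.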

Other observations

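From D0 to D70 in control, where 14.7% of all genes were called lower, 29 of 37 ribosome assembly genes were lower and 1 higher by edgeR (median log2 fold change -1.21), and 17 of 76 mitochondrial ribosomal protein genes were lower and 0 higher (median -0.61). Of the 16 listed TOP mRNA genes 2, HNRNPA1 and PABPC1, were lower and 0 higher, with a median of -0.16, beside -0.36 for the members and 0.03 for all genes. With TMG, where 14.1% of all genes were called lower, the medians from D0 to D70 were -1.13 for the assembly genes (27 lower, 1 higher), -0.60 for the mitochondrial ribosomal proteins (23 lower, 0 higher) and -0.30 for the listed TOP mRNA genes (3 lower, 0 higher). Differences between these lists were not tested.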
